A study of Mus musculus with 4 samples.

Results

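The naive pluripotency genes were examined for 2 histone marks in rosette stem cells, mouse pluripotent cells held between the naive and the primed state. The 10 genes are Nanog, Dppa3, Zfp42, Klf4, Klf2, Esrrb, Tbx3, Prdm14, Tfcp2l1 and Fgf4. Each was given a fixed window of 20 to 180 kb on mouse build mm9, and a region belonged to a gene when it overlapped the window by at least 1 bp. The rule found 79 of the 76945 regions in the 4 lists, with 10 of 14575 (CGR8) and 14 of 12511 (R1) for H3K27me3 and 25 of 25241 (CGR8) and 30 of 24618 (R1) for H3K4me3. The lists name no genes, so a region is tied to a gene only by the window, and the gene's own start was not located on mm9.

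The cells were CGR8 embryonic stem cells of strain 129/Ola and R1 embryonic stem cells of strain 129. Both had been kept for 8 days in N2B27 medium with LIF, 2 µM IWP2, which blocks WNT secretion, and 1 µM PD325901, a MEK inhibitor. Chromatin immunoprecipitation and sequencing gave 1 library for each line and mark, so a difference between CGR8 and R1 has no replicate check. Published naive and primed cells named by the study were not analysed here, and no expression was measured in these libraries, so the label of the cells was not checked by transcript levels.

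Naive pluripotency is held by a network of transcription factors that keep one another on and that are turned down as cells of the epiblast move towards the primed state. Trimethylation of lysine 4 on histone H3 (H3K4me3) marks promoters that are active or kept ready, and it spreads over kilobases at some genes that define a cell's identity. Trimethylation of lysine 27 (H3K27me3) is laid down by Polycomb repressive complex 2 at silent or weakly used genes, often over promoters that carry H3K4me3 as well, a state called bivalent. Called regions of both marks at one place in a culture do not show that both lie in the same cells.

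All 10 genes carried H3K4me3 in both lines, and they fell into 2 sets by H3K27me3. Klf2, Zfp42, Fgf4, Nanog and Dppa3 had no H3K27me3 region in either line. Genes or regions described below as without H3K27me3 are those where none was called. Tbx3, Prdm14, Esrrb and Klf4 had H3K27me3 in their window in both lines, and Tfcp2l1 had it in R1 only. An H3K4me3 region was overlapped by H3K27me3 in both lines at 3 genes (Tbx3, Prdm14 and Esrrb) and in R1 alone at 2 (Klf4 and Tfcp2l1). With windows 10 kb wider on each side Klf4 also had it in both lines, by a region 1.4 kb outside the bounds used.

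The counts of H3K27me3 lay near the shares over the lists as a whole. No such share was computed for H3K4me3 at 10 of 10 genes or for overlap in both lines at 3 genes. H3K27me3 was called in both lines at 4 of the 10 genes, against 36.5% of the 30 kb tiles of the genome with H3K4me3 in both lines. Within a line it was called at 4 genes in CGR8 and 5 in R1, against 40.1% and 39.4% of such tiles. Of the H3K4me3 regions in the windows, 7 of 25 in CGR8 and 10 of 30 in R1 were overlapped by H3K27me3 (28.0% and 33.3%), and over all H3K4me3 regions the shares were 28.2% and 29.1%. Windows differ from tiles in length, and no test was run on these counts. Where a list has no region, none passed the unstated calling threshold at that library's depth, and absence of the mark cannot be read from the list. The lowest scores in the lists were 70.6 (CGR8) and 59.4 (R1) for H3K27me3 and 38.5 (CGR8) and 37.3 (R1) for H3K4me3, and the sources used here give no total read numbers.

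Called H3K27me3 covered 102.2 kb of the 510 kb of windows in CGR8 and 96.6 kb in R1, a mean of 99.4 ± 3.96 kb (SD, n = 2 lines). Called H3K4me3 covered 139.4 kb in CGR8 and 131.4 kb in R1, a mean of 135.4 ± 5.66 kb (SD, n = 2 lines). An exact permutation test of the marks over the 4 libraries gave a two-sided p of 0.333, the smallest value that this test allows for 2 against 2. Within a line, H3K27me3 minus H3K4me3 was -37.2 kb in CGR8 and -34.8 kb in R1. Esrrb and Tbx3 alone held 86.4 kb of the H3K27me3 cover in CGR8 and 76.2 kb in R1.

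**Figure D1:**
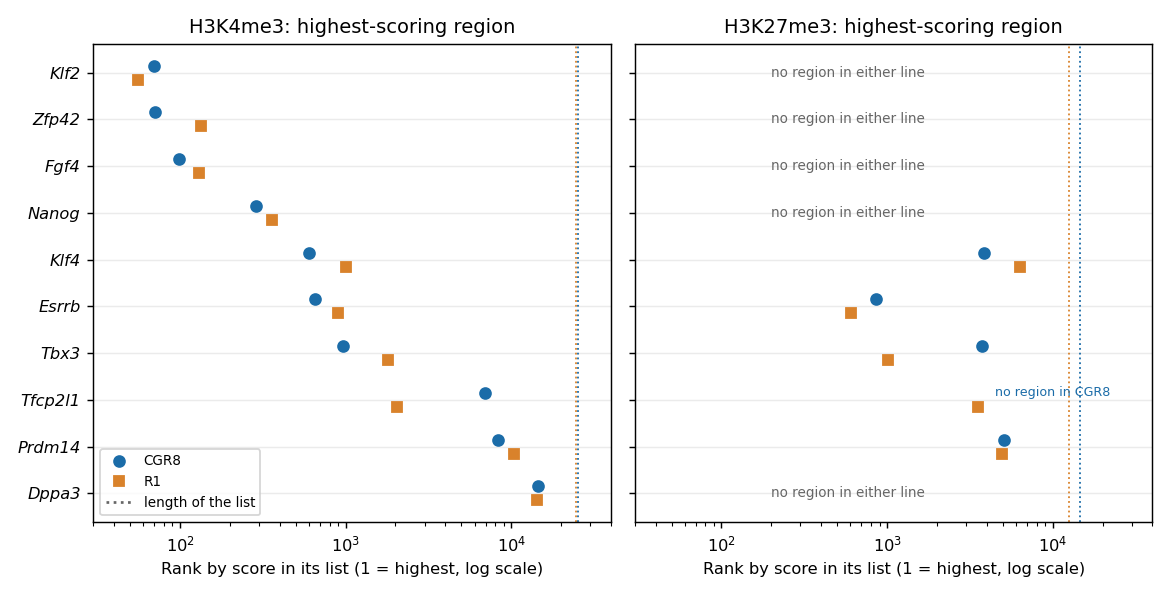
Rank by score of the highest-scoring H3K4me3 region (left) and H3K27me3 region (right) in the window of each gene, on a log scale where 1 is the highest of the list, with circles for CGR8 and squares for R1. Klf2, Zfp42, Fgf4 and Nanog stand highest for H3K4me3, at ranks of 361 or better in both lines, and have no H3K27me3 region.

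The promoters themselves span a wide range of CpG content, the sequence feature that both marks are known to favour, and 5 are shown to place the 2 sets of genes against it. The sequences are from RefSeq on build GRCm38.p6, 250 bases before to 50 bases after the gene's start, written 5′ to 3′ with each CG in capitals. Their positions are on that build and were not matched to the mm9 positions of the regions. Nanog, Zfp42 and Klf2 had no called H3K27me3 region, and Klf4 and Tfcp2l1 had H3K27me3 called over their strongest H3K4me3 region in R1 alone.
Nanog (chr6:122707239-122707538, plus strand): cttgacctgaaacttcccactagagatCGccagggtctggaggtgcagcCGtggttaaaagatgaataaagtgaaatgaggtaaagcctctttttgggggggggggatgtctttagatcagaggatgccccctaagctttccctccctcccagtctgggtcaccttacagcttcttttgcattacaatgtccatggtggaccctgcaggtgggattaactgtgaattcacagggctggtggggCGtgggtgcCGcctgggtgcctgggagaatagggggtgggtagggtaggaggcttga
Zfp42 (chr8:43306960-43307259, minus strand): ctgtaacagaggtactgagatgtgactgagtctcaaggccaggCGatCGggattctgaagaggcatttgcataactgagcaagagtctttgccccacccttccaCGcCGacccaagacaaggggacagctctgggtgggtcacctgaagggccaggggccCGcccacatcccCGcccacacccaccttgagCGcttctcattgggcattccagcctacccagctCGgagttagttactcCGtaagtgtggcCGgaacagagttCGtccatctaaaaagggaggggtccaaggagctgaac
Klf2 (chr8:72318812-72319111, plus strand): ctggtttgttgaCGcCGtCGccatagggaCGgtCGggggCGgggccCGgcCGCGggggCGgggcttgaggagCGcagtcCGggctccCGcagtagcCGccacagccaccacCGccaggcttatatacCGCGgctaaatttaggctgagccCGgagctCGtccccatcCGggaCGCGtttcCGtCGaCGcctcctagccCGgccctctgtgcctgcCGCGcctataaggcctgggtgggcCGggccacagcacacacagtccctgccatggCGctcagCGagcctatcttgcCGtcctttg
Klf4 (chr4:55532426-55532725, minus strand): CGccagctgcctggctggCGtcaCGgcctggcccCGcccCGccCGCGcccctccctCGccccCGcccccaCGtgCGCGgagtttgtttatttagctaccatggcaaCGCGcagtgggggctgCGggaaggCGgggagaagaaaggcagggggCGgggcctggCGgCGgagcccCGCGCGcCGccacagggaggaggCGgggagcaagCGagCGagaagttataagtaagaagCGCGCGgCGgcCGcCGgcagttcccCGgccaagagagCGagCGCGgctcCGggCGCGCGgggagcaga
Tfcp2l1 (chr1:118627695-118627994, plus strand): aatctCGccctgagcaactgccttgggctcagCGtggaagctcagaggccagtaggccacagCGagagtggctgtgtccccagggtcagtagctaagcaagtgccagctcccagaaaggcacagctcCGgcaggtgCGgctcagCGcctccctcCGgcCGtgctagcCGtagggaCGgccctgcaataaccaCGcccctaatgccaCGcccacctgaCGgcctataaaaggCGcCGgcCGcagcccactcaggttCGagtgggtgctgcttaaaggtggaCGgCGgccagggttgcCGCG

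Promoter sequences were matched for 7 of the 10 genes, with 2 starts each for Nanog and Esrrb. The Nanog promoters held 4 CG each, those of Esrrb 7 each, Zfp42 11, Tfcp2l1 21, Fgf4 28, Klf2 32 and Klf4 40. Over all 32851 promoters of that length the median was 7 CG, with lower and upper quartiles of 3 and 20. Nanog thus had fewer CG than the median promoter beside one of the widest H3K4me3 regions of each list, and promoters with more CG than most stood both among the genes without H3K27me3 (Klf2 and Fgf4) and among those with it (Klf4 and Tfcp2l1). The letters TTTGCAT, part of the octamer that POU factors are known to bind, were searched on both strands. They were found in the promoters of Nanog and Zfp42 and in none of the other 5 genes, and 4.63% of all promoters hold them. The match begins 185 bases before the start in Zfp42 and 75 bases before it in the Nanog sequence shown. It describes the letters only.

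Among the genes without H3K27me3, Klf2 encodes a Krüppel-like zinc finger factor that helps to sustain naive self-renewal. Its main H3K4me3 region lay on chromosome 8 from 74842401 to 74847600 in CGR8 (5.2 kb, score 6325) and from 74842401 to 74847800 in R1 (5.4 kb, score 6174). It ranked 70 of 25241 by score in CGR8 and 56 of 24618 in R1. Scores rose with width across H3K4me3 regions (rank correlation 0.708 in CGR8 and 0.734 in R1, over regions that are not independent), and per kb Klf2 stood highest of the 10 genes, at 1216 in CGR8 and 1143 in R1, ranks 123 and 143 of their lists. The region was narrower than those of Zfp42, Nanog and Fgf4. A second, weak region lay about the end of the window, with scores of 92.4 in CGR8 and 100.3 in R1.

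Zfp42, also called Rex1, encodes a zinc finger protein widely used as a marker of naive cells. Its H3K4me3 region ran on chromosome 8 from 44376601 to 44397000 in CGR8, and at 20.4 kb it was the widest of all 25241 regions of that list. In R1 the call was split, with a region from 44379201 to 44393400 (14.2 kb, rank 12 by width) and a weak one from 44394001 to 44396800 (2.8 kb, score 51.8). The main region ranked 71 by score in CGR8 (6323) and 133 in R1 (5168). Per kb its score was 310 in CGR8 and 364 in R1, against list medians of 178 and 197. H3K4me3 covered 68.0% of the 30 kb window in CGR8 and 56.7% in R1.

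Nanog, the homeobox factor that steadies the naive network, had an H3K4me3 region on chromosome 6 from 122651601 to 122666600 in CGR8 (15 kb, score 4718) and from 122651801 to 122665000 in R1 (13.2 kb, score 4141). It ranked 13 of 25241 by width and 286 by score in CGR8, and 17 and 361 of 24618 in R1. A further R1 region from 122665401 to 122667000 had a score of 57.4 and continued the same stretch after a gap of 0.4 kb. Both lines covered 14.4 kb of the window in common, 93.5% of what either covered.

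Fgf4, the fibroblast growth factor through which pluripotent cells signal to one another by way of MEK, had 1 H3K4me3 region in each line. It ran on chromosome 7 from 152041001 to 152052400 in CGR8 (11.4 kb, score 5873, rank 99) and from 152040401 to 152052200 in R1 (11.8 kb, score 5191, rank 131). It filled 57.0% of the 20 kb window in CGR8 and 59.0% in R1.

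Dppa3, also called Stella, encodes a protein that protects DNA methylation in the early embryo, and it was the weakest of the 10 for H3K4me3. Its main region lay on chromosome 6 from 122576001 to 122579200 in CGR8 (3.2 kb, score 211) and from 122576201 to 122579200 in R1 (3 kb, score 207). It ranked 14428 of 25241 in CGR8 and 14367 of 24618 in R1, below the median of each list. Per kb it scored 66.0 in CGR8 and 68.8 in R1, against list medians of 178 and 197. A second region of 1 kb from 122583001 to 122584000 had the same bounds in both lines, with scores of 88.5 (CGR8) and 58.0 (R1). In the annotation Dppa3 lies next to Nanog on the same chromosome, so the pair share a neighbourhood while differing in H3K4me3.

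**Figure D2:**
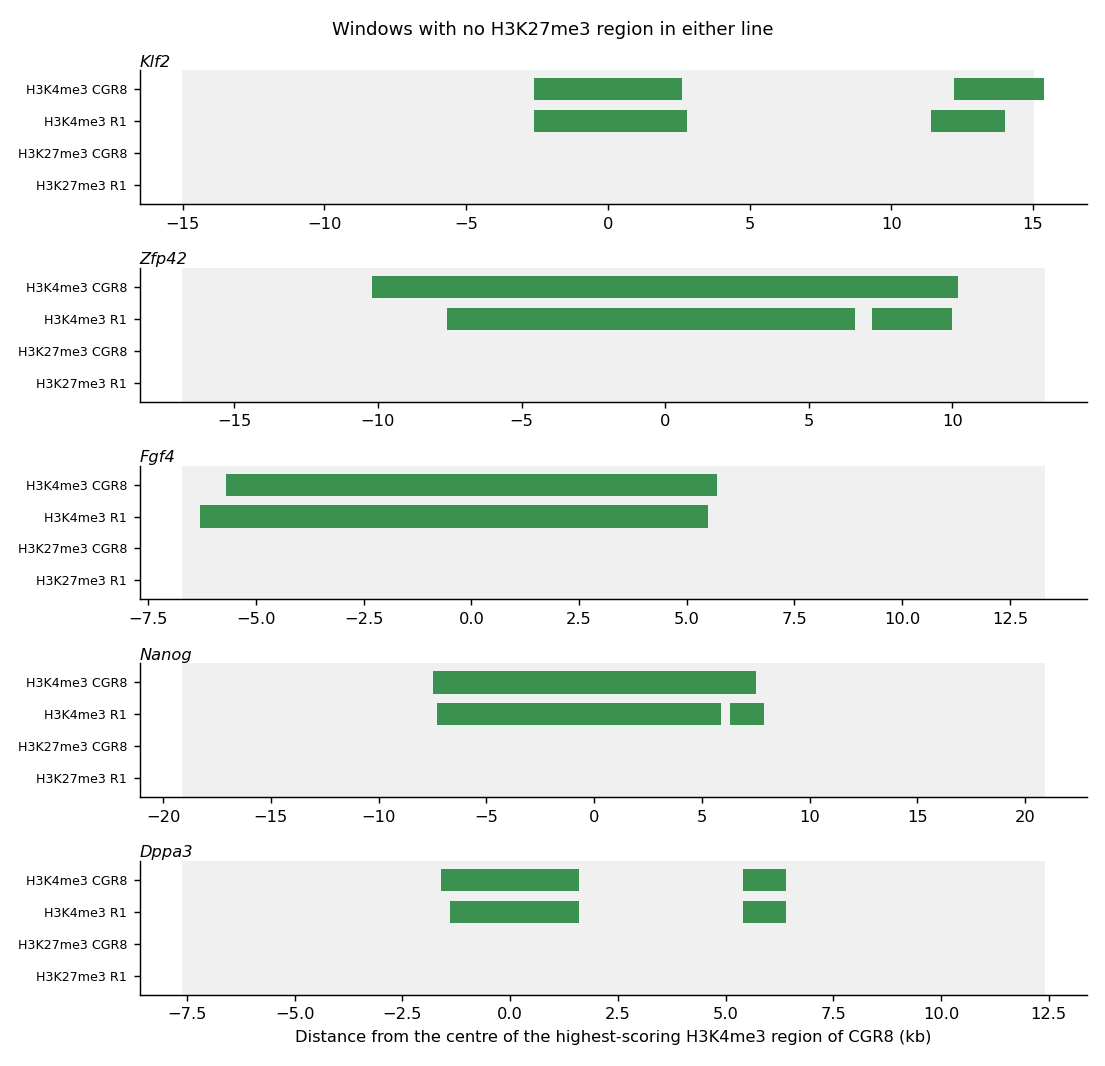
Called regions at the 5 genes with no H3K27me3 region, drawn to scale by their distance in kb from the centre of the highest-scoring H3K4me3 region of CGR8, with the window shaded and a different scale for each gene. H3K4me3 (green) spans 20.4 kb at Zfp42 in CGR8, against 3.2 kb for the main region of Dppa3 in the same line, and the H3K27me3 rows are empty.

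The highest-scoring H3K4me3 regions of the 10 genes were often wide, beside the highest-scoring regions of fixed tiles of 30 kb. The windows were placed at genes and ran from 20 to 180 kb, so the tiles were not matched to them. Their median width was 7.4 kb in CGR8 and 7.5 kb in R1, while the highest-scoring region of each 30 kb tile with H3K4me3 had a median width of 2.2 kb in each line. In each line 5 of the 10 reached the widest 1% of the list, meaning at least 7800 bp for CGR8 and 7400 bp for R1: Zfp42, Nanog, Esrrb, Fgf4 and Tbx3. The same held for 1.7% of the tiles in CGR8 and 1.79% in R1, and some windows are longer than a tile. Among the 5 genes, H3K27me3 overlapped the region at Tbx3 and not at the other 4. The share overlapped among all regions of the widest 1% was not computed, so this count has no background beside it. The highest-scoring region stood among the first 1000 of its list at 7 genes in CGR8 and 5 in R1, and H3K27me3 overlapped 1 of these 7 (Tbx3) and 0 of these 5. The R1 region of Klf4, covered by H3K27me3 to 41.2%, ranked just below that cut, at 1002. Over all of the first 1000 regions it overlapped 6.6% in CGR8 and 7.8% in R1. Ranked by score per kb, the median place of these 10 regions was 35.5% down the list, against 3.17% when ranked by score (means of both lines).

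Among the genes with H3K27me3, Tbx3, a T-box factor that sustains naive cells and later takes part in the patterning of mesoderm and limbs, carried both marks in several regions of its window. H3K27me3 covered 24.4 kb of the 30 kb in CGR8 and 27.8 kb in R1, in 3 regions in each line. In CGR8 they ran on chromosome 5 from 120111001 to 120119600, from 120121401 to 120129800 and from 120132601 to 120141200, with scores of 254, 151 and 159. In R1 they ran from 120105601 to 120120200, from 120121401 to 120129400 and from 120130401 to 120141800, with scores of 605, 279 and 323. All 3 were lower in CGR8, where they ranked 3731, 6321 and 5957 of 14575, while in R1 they ranked 1010, 2790 and 2413 of 12511.

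H3K4me3 lay over the same stretch of Tbx3. The main region ran from 120118001 to 120126000 in CGR8 (8 kb, score 3442, rank 965) and from 120117801 to 120126000 in R1 (8.2 kb, score 2565, rank 1813). The share of it under H3K27me3 was 77.5% in CGR8 and 85.4% in R1. All 4 H3K4me3 regions of CGR8 and all 5 of R1 in the window were overlapped by H3K27me3, and bases with both marks came to 13 kb in CGR8 and 13.8 kb in R1. Tbx3 and Prdm14 were the 2 genes whose highest-scoring H3K4me3 region met H3K27me3 in both lines, and of these Tbx3 had the stronger H3K4me3.

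Prdm14, a PR domain factor known to hold down FGF signalling and DNA methylation in naive cells and to act with Polycomb, had its main H3K4me3 region inside or across an H3K27me3 region in both lines. H3K4me3 ran on chromosome 1 from 13113601 to 13119200 in CGR8 (5.6 kb, score 886, rank 8348) and from 13113801 to 13118800 in R1 (5 kb, score 593, rank 10413). H3K27me3 ran from 13113401 to 13121600 in CGR8 (8.2 kb, score 188, rank 5050) and from 13113001 to 13117200 in R1 (4.2 kb, score 151, rank 4945). The H3K4me3 region was covered by H3K27me3 to 100% in CGR8 and to 68.0% in R1. The other H3K4me3 region of the window, from 13093401 to 13096000 in CGR8 and from 13093001 to 13095800 in R1, had no H3K27me3 in either line. After Dppa3, Prdm14 had the lowest-ranking H3K4me3 of the 10 genes in both lines.

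Esrrb, an orphan nuclear receptor at the core of the naive network, showed the marks side by side along its 180 kb window. H3K27me3 took up the lower part on chromosome 12, in 5 regions between 87691001 and 87768000 in CGR8 and in 6 between 87689801 and 87772600 in R1, with 62 kb and 48.4 kb inside the window. The strongest H3K4me3 region lay apart from them, from 87806801 to 87822000 in CGR8 (15.2 kb, score 3872, rank 657) and from 87807601 to 87822000 in R1 (14.4 kb, score 3277, rank 899). The nearest H3K27me3 region ended 38.8 kb before it in CGR8 and 35 kb before it in R1. Further H3K4me3 regions without H3K27me3 followed up to 87847400 in CGR8 and 87847000 in R1.

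Both marks met at 2 places in Esrrb. The stronger lay at the upper end of the H3K27me3 stretch, where H3K4me3 ran from 87762201 to 87764000 in CGR8 (1.8 kb, score 399.7) and from 87762401 to 87764200 in R1 (1.8 kb, score 445). It was wholly inside the highest-scoring H3K27me3 region of the 10 genes. That region ran from 87758401 to 87768000 in CGR8 (9.6 kb, score 770, rank 860 of 14575) and from 87758201 to 87772600 in R1 (14.4 kb, score 818, rank 602 of 12511). Its score per kb was 80.2 in CGR8 and 56.8 in R1, against list medians of 19.6 and 20.6. The weaker place was a faint H3K4me3 region from 87743001 to 87745400 in CGR8 (score 66.2) and from 87743601 to 87745600 in R1 (score 39.5, rank 24082 of 24618).

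Klf4, a Krüppel-like factor and one of the classical reprogramming factors, had strong H3K4me3 with H3K27me3 beside it. H3K4me3 ran on chromosome 4 from 55540401 to 55547200 in CGR8 (6.8 kb, score 3948, rank 599) and from 55540601 to 55547400 in R1 (6.8 kb, score 3170, rank 1002). In CGR8 H3K27me3 ran from 55524601 to 55537600 (13 kb, score 248), which ended 2.8 kb before the H3K4me3 region. In R1 the same stretch held a region from 55524601 to 55531600 (score 84.1) and another from 55533401 to 55536600 (score 68.4). A further R1 region from 55542401 to 55545200 (2.8 kb, score 114, rank 6368 of 12511) lay wholly inside the H3K4me3 region and had no counterpart in CGR8. Inside the window, the overlap of marks at Klf4 rests on that 1 region of R1.

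Tfcp2l1, a CP2-family factor downstream of LIF and STAT3, had H3K27me3 in R1 only, from 120518401 to 120527000 on chromosome 1 (8.6 kb, score 219, rank 3552 of 12511). It covered 75% of the main H3K4me3 region of R1, which ran from 120524001 to 120528000 (4 kb, score 2443, rank 2034), while that of CGR8 ran from 120524001 to 120526400 (2.4 kb, score 1122, rank 6903). The window held 3 H3K4me3 regions in CGR8 and 6 in R1. It lies in a block of 20 Mb of chromosome 1 in which CGR8 had 34 H3K27me3 regions and R1 565. The 66 H3K4me3 regions paired between the lines in the block had a median log2 score ratio of -1.05 (CGR8 over R1), beside -1.12, -1.40 and -1.62 for the 3 pairs of Tfcp2l1. These 3 pairs are among the 66, so that median is not independent of them. The part of the block in the Tfcp2l1 difference was not tested. Without Tfcp2l1, H3K27me3 was found in either line at 4 of 9 genes.

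**Figure D3:**
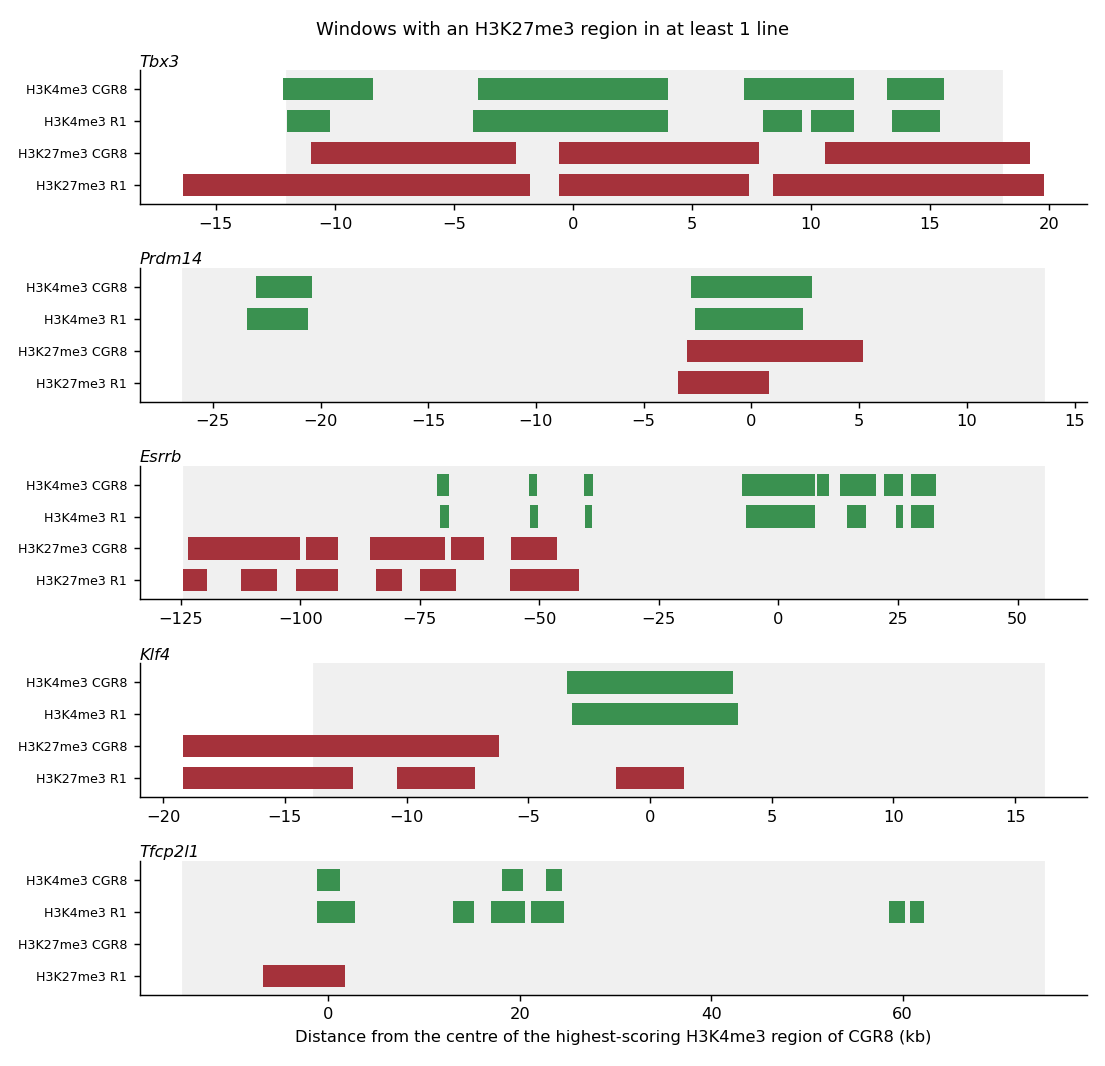
Called regions at the 5 genes with H3K27me3 in at least 1 line, drawn to scale by their distance in kb from the centre of the highest-scoring H3K4me3 region of CGR8, with the window shaded and a different scale for each gene. H3K27me3 (red) lies across the H3K4me3 regions (green) at Tbx3 and Prdm14 in both lines, ends 35 kb or more before the strongest one at Esrrb, and is absent from the CGR8 row at Tfcp2l1.

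The last comparison set CGR8 against R1 at each gene. H3K4me3 regions of the windows were found in the other line for 24 of 25 in CGR8 and 27 of 30 in R1, beside 89.8% and 92.6% of all regions. All 10 H3K27me3 regions of CGR8 and 12 of 14 of R1 had a partner, beside 67.1% and 81.1% of all regions. The 2 H3K27me3 regions of R1 without a partner were the one inside the Klf4 H3K4me3 region and the one at Tfcp2l1. The H3K4me3 regions without a partner were 1 weak region of CGR8 at Esrrb (score 78.3) and 3 weak regions of R1 at Tfcp2l1 (scores of 46.8 to 70.8). Scores were compared as log2 ratios of CGR8 over R1 for regions that were each other's longest overlap. The median over all such pairs was 0.03 for H3K4me3 (22486 pairs) and 0.26 for H3K27me3 (9375 pairs), and 90% of pairs lay between -0.63 and 0.79 and between -0.56 and 1.38.

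For H3K4me3 the lines were close at the strongest region of most genes, though not at Tfcp2l1. The ratio was above 0 at 9 of 10 genes, between 0.03 at Dppa3 and Klf2 and 0.58 at Prdm14, and it was -1.12 at Tfcp2l1. Over all 22486 pairs 54.7% were above 0, and of the 1000 pairs with the highest product of both scores 76.4% were. The strongest regions of Dppa3, Prdm14 and Tfcp2l1 stood below the first 1000 of their list in both lines. Tfcp2l1 was the sole gene of the 10 whose strongest pair lay outside the range of 90% of pairs. Over all 24 H3K4me3 pairs of the windows, 7 lay outside that range, with ratios from -1.62 to 2.93. They were the 3 pairs of Tfcp2l1, 2 weak pairs of Esrrb at 1.07 and 0.95, and 2 pairs of Tbx3 at 2.93 and 1.78. The 2.93 set a CGR8 region of 4.6 kb (score 1066) against the R1 region from 120132001 to 120133800 (1.8 kb, score 140). Another R1 region under the same CGR8 region, from 120130001 to 120131600 (score 492), was left unpaired, so the ratio overstates the difference there. At 1.78 the CGR8 region was also wider, at 3.8 kb against 1.8 kb in R1.

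For H3K27me3 the genes went both ways. The 3 pairs of Tbx3 had ratios of -1.25, -0.89 and -1.02, and 0.715%, 1.99% and 1.35% of all pairs lay lower. Summed over the regions of the window, Tbx3 scored 564 in CGR8 and 1207 in R1. The Tbx3 regions at -1.25 and -1.02 were wider in R1, at 14.6 and 11.4 kb against 8.6 kb each in CGR8. The pair at -0.89 was 8.4 kb in CGR8 and 8 kb in R1. Per kb, in order of position, the Tbx3 scores were 29.5, 17.9 and 18.5 in CGR8 and 41.4, 34.9 and 28.4 in R1. Esrrb had ratios of 2.12 and 2.43 at the pairs that start at 87691001 and 87729001 in CGR8, 0.25 at the pair between them and -0.09 at the strongest, and its summed scores were 1778 in CGR8 and 1247 in R1. The 2.12 and 2.43 each set a long CGR8 region against 1 of the R1 regions under it. Other R1 regions there, with scores of 60.0 and 106.9, were left unpaired. At Klf4 the pair had a ratio of 1.56, but R1 held more regions, and the sums were 248 in CGR8 and 266 in R1. At Prdm14 the ratio was 0.32. The paired regions at Esrrb and Klf4 with ratios above 1 were also wider in CGR8 than in R1, and 1 library per line gives no error for these differences.

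**Figure D4:**
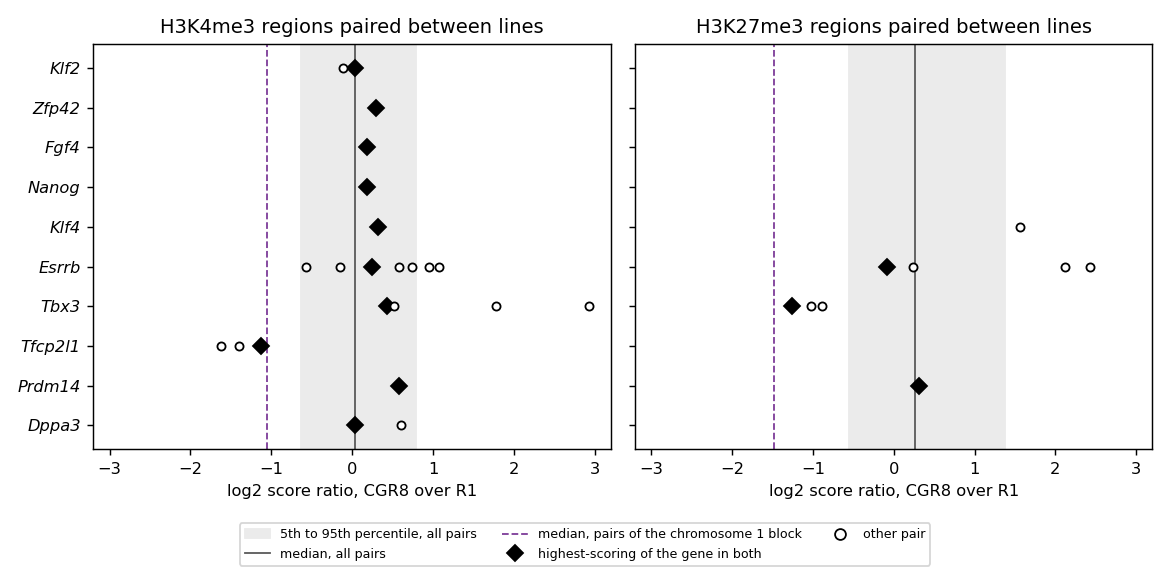
The log2 score ratio of CGR8 over R1 for each pair of H3K4me3 (left) and H3K27me3 (right) regions at the genes, with filled diamonds where the pair is the highest-scoring of the gene in both lines. Grey bands hold the middle 90% of all pairs. The dashed line is the median of the chromosome 1 block, whose H3K4me3 pairs include those of Tfcp2l1. The strongest Tfcp2l1 pair lies close to that line at -1.12, while the Tbx3 pairs of H3K27me3 lie at -0.89 and below.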

How the data were processed

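The authors deposited 1 list of regions for each line and mark, with bounds and a score per region, whose unit and formula are not stated. Bowtie2 2.0.2, SICER 1.1, a caller of broad regions, bedtools 2.20.1 and build mm9 are named, with neither order nor settings, per the submitters' processing notes. The sources used here give no control library and no calling threshold. All bounds lie on a grid of 200 bp, and the smallest gap between regions was 800 bp for H3K27me3 and 400 bp for H3K4me3, so nearer calls were joined, more widely for H3K27me3.

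The labels gave the mark of each library, and the lines stand as replicates (CGR8 is 1, R1 is 2). Nothing ties a library to a separate culture, so the p-values compare these 4 libraries only. Each is the smallest value its test allows, so it does not measure the size of a spread between libraries. Positions were counted from 1. Regions were ranked by score within their list, and overlap meant at least 1 bp. Tiles of 30 kb, up to the last position called on a chromosome, gave the background of the windows. All 10 genes are named, and every region in their windows is named or counted. The members and lists were chosen with earlier results of these data known, so no test over regions was run. No mm9 annotation was used, and other pluripotency genes were not analysed here. The overlap and pairing steps were tested on simulated data. Python 3.11.15, numpy 2.4.6, scipy 1.17.1 and matplotlib 3.10.9 were used. Alternatives concerned overlap, list length, windows, merging, score per kb, either line, and Tfcp2l1 left out.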

Additional observations from a re-analysis of the deposited data

How the results depend on the processing

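Of 57 values recomputed over 7 results, 47 moved by less than the spread between lines or, for counts of genes, stayed within 1.5 times. Leaving out either line always moves a mean of 2 lines by less than their SD. Those recomputed means are among the 47 and could not have counted as moved. With the higher-scoring 50% of each list, 37.5% of H3K4me3 regions in the windows were overlapped by H3K27me3, in place of 30.7%, and the cover was 71.9 ± 23.9 kb for H3K27me3 and 97.1 ± 9.76 kb for H3K4me3 (SD, n = 2 lines), so the lines lay farther apart in H3K27me3 cover than the SD of 3.96 kb with the whole lists. Klf4 then kept H3K27me3 in CGR8 alone, so genes with H3K27me3 in both lines numbered 3 in place of 4. Those with H3K4me3 in both lines numbered 9 in place of 10, as Dppa3 dropped out. Windows widened by 10 kb gave a cover of 110.9 kb for H3K27me3 and 146.4 kb for H3K4me3, and no gene gained or lost H3K27me3, but genes with the marks overlapping in both lines numbered 4 in place of 3, with Klf4 added. Without Tfcp2l1 the share was 34.7% and the cover 95.1 kb and 124.2 kb. Ranked by score per kb, the median place of the strongest H3K4me3 region was 35.5% down the list in place of 3.17%.

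Leaving out either line, the genes with an H3K4me3 region overlapped by H3K27me3 numbered 3 (CGR8 alone) to 5 (R1 alone), as Klf4 and Tfcp2l1 had it in R1. Those with H3K27me3 numbered 4 to 5. The cover ranged from 96.6 to 102.2 kb for H3K27me3 and from 131.4 to 139.4 kb for H3K4me3. With the marks paired within a line (replicate block, chosen after the data were seen), the difference in cover stayed at -36.0 kb, and the exact sign-flip permutation test gave p = 0.5, the smallest that 2 pairs allow. With 1 library each, no error within a line can be given, and weak regions depend on the calling threshold.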

Other observations

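Some regions lay just outside the windows. Beyond the end of the Nanog window, towards its annotated neighbour Slc2a3, a strong H3K4me3 region ran on chromosome 6 from 122686401 to 122695800 in CGR8 (9.4 kb, rank 218) and from 122687001 to 122696000 in R1 (9 kb, rank 456). Before the Dppa3 window, on the side of Gdf3, one ran from 122555401 to 122560800 in CGR8 (5.4 kb, rank 2063) and from 122555201 to 122560600 in R1 (5.4 kb, rank 1443). The weakly marked Dppa3 thus lay between stronger H3K4me3 regions on both sides, counting that of Nanog. Neither was given to a gene, since the annotation used is not on mm9.

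After the end of the Esrrb window, H3K27me3 appeared again on chromosome 12 from 87877001 to 87883600 in CGR8 (6.6 kb, score 135) and from 87878401 to 87892600 in R1 (14.2 kb, score 332). Before the Klf4 window an H3K4me3 region from 55527001 to 55528600 in CGR8 (score 273) and from 55527201 to 55528600 in R1 (score 355) lay inside the H3K27me3 stretch that reaches into the window, so both marks met there in both lines, 1.4 kb outside the bounds used.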
